A study of Mus musculus with 15 samples.

Results

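Nerve-associated macrophages of unpunched mouse ear skin were compared with interstitial macrophages of the same unpunched skin, by RNA-seq of sorted cells. The comparison used 6 of the 15 libraries of the study, chosen by their titles: 3 libraries titled sNAM, the nerve-associated macrophages, and 3 titled interstitial macrophages (IM). All mice carried creERT2 and gfp at the CX3CR1 locus together with 1 R26-tdT allele (R26-tdT/+), a tomato reporter that Cre switches on. All had received tamoxifen, so the IM libraries come from treated reporter mice too and not from wild-type animals. The left ear was punched 3 weeks after tamoxifen and skin was taken 10 days later; both groups described here come from the right, unpunched ear of these animals. The other 9 libraries are nerve-associated (injsNAM) and interstitial (injIM) macrophages of the punched left ear and recruited nerve-associated macrophages of that ear (recsNAM), again 3 libraries each. The cells were sorted as CD11b-positive, CD64-positive and lineage-negative. The sorting protocol assigns resident nerve-associated macrophages to the gate positive for GFP and Tomato, and interstitial macrophages to the gate negative for both. The reporter field of the labels goes against this, since it gives GFP-/Tomato- for the sNAM libraries of the unpunched ear as well as for the IM libraries. The groups therefore rest on the titles. The genotype is written with Cxcr1, and the protocol with CX3CR1. The samples came from 3 mice that the labels do not tie to libraries, so p-values measure the spread between libraries that were treated as independent.

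Skin holds several macrophage populations. Interstitial macrophages lie in the dermis and around vessels, are rich in scavenger and mannose receptors, and take up and degrade material in lysosomes. Sensory nerve-associated macrophages lie along peripheral nerves of the dermis, carry the fractalkine receptor CX3CR1, and are known for trimming myelin and for surveying nerves and helping their repair after injury. The receptor CCR7, which appears prominently below, is best known from mature dendritic cells, which use it to follow chemokines into lymphatic vessels.

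The sNAM libraries were shallower and differed more among themselves than the IM libraries. Recovered depth was 18.6, 5.64 and 9.09 M reads (M, mega) in sNAM replicates 1, 2 and 3, against 20.9, 23.8 and 20.6 M in IM. At an equal depth of 5636251 reads, 9842, 8581 and 11888 genes were expected to be detected in sNAM, against 14207, 14015 and 13879 in IM, so depth alone did not close the gap. The share of the 8656 tested genes without any read was 11.6%, 25.8% and 3.89% in the sNAM libraries, against 0.162 to 0.243% in the IM libraries. The correlation of log2 values was 0.644 to 0.776 among sNAM libraries and 0.972 to 0.982 among IM libraries. sNAM replicate 3 stood nearest to the IM libraries (r = 0.837 to 0.851), and sNAM replicate 2 farthest (r = 0.680 to 0.689). Some genes were read in a single sNAM library: 8, 10 and 3 genes had a normalized count of 1000 or more in replicate 1, 2 or 3 and no read in the other two. Abca5, for example, measured 2042, 0 and 0 in sNAM, against 22.0, 12.4 and 36.3 in IM, and Ptger2 measured 0, 1787 and 0, against 37.2, 89.1 and 61.4. The reads were amplified over 13 PCR cycles from 250 pg of RNA without molecular identifiers, and whether missing reads reflect lost transcripts or lower expression was not tested.

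**Figure D1:**
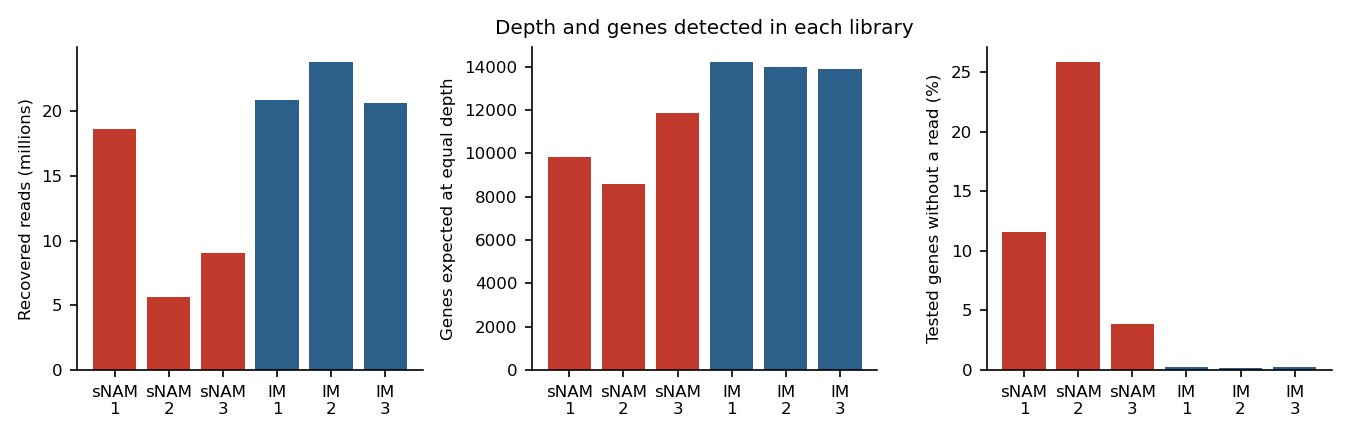
Depth and detection in the 3 sNAM (red) and 3 IM (blue) libraries: recovered reads in M, genes expected at the depth of the shallowest library, and the percentage of tested genes with no read. Each sNAM bar for genes is below each IM bar, and sNAM replicate 2 has the most tested genes without a read (25.8%).

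Values below are normalized counts, the read counts divided by the authors' factor for each library, always in the order replicate 1, 2, 3. In limma on log2(value + 100) with a spread of its own for each group, 91 of 8656 genes were called (1.05%) at a Benjamini-Hochberg adjusted p under 0.05. Of these, 47 were higher in sNAM (0.543%) and 44 were lower (0.508%). The median log2 difference of all genes tested was -0.26, and 37.0% of genes had a positive difference, so a list whose median lies near -0.26 did what the average gene did. For every one of the 91 genes the 3 sNAM libraries lay all above or all below the 3 IM libraries. Such a gap was common in itself, with all sNAM libraries above all IM libraries for 9.57% of genes tested and all below for 18.4%. The higher and the lower calls differed in their reads. Each of the 47 higher genes had reads in every sNAM library, whereas 24 of the 44 lower genes had none in at least 1 sNAM library, 23 of them in replicate 2, and 9 had none in 2 or more. In 32 of the 44 lower genes sNAM replicate 2 alone was the lowest library, and in the 9 without reads in 2 or more it tied with replicate 1 at 0.

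The calls depended on single libraries. No gene was called without sNAM replicate 1, and without sNAM replicate 3 there were 9 calls, all lower, 7 of them among the 44. Without sNAM replicate 2 there were 82, with 30 of the 47 higher and 15 of the 44 lower genes among them. With 1 IM library left out, 57 to 108 genes were called, the fewest without IM replicate 3. No gene of the 91 changed sign in any of 19 alternative settings. Because the 2 groups did not overlap in any of these genes, leaving out a library or changing the pseudocount could not reverse a sign. Among tools that model the recovered reads, voom with quality weights called all 47 higher genes and 7 of the 44 lower ones, edgeR with TMM scaling called 42 and 14, and DESeq2 called 46 and 31 among 926 genes in all. At least 16 of the 19 alternatives called 20 of the 91 genes, 18 higher and 2 lower. The 2 lower ones were Gas6 and Timp2. In simulated data with no gene changed, the same fit called none higher but about as many lower as here. The simulation gave all genes of a group the same spread, so it is simpler than the real libraries and cannot vouch for the higher calls. The number of lower calls therefore does not by itself show a change, and how many of them arose without one was not tested. Below, "fell" says that a gene passed the test, and the values in each library stand beside it.

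**Figure D2:**
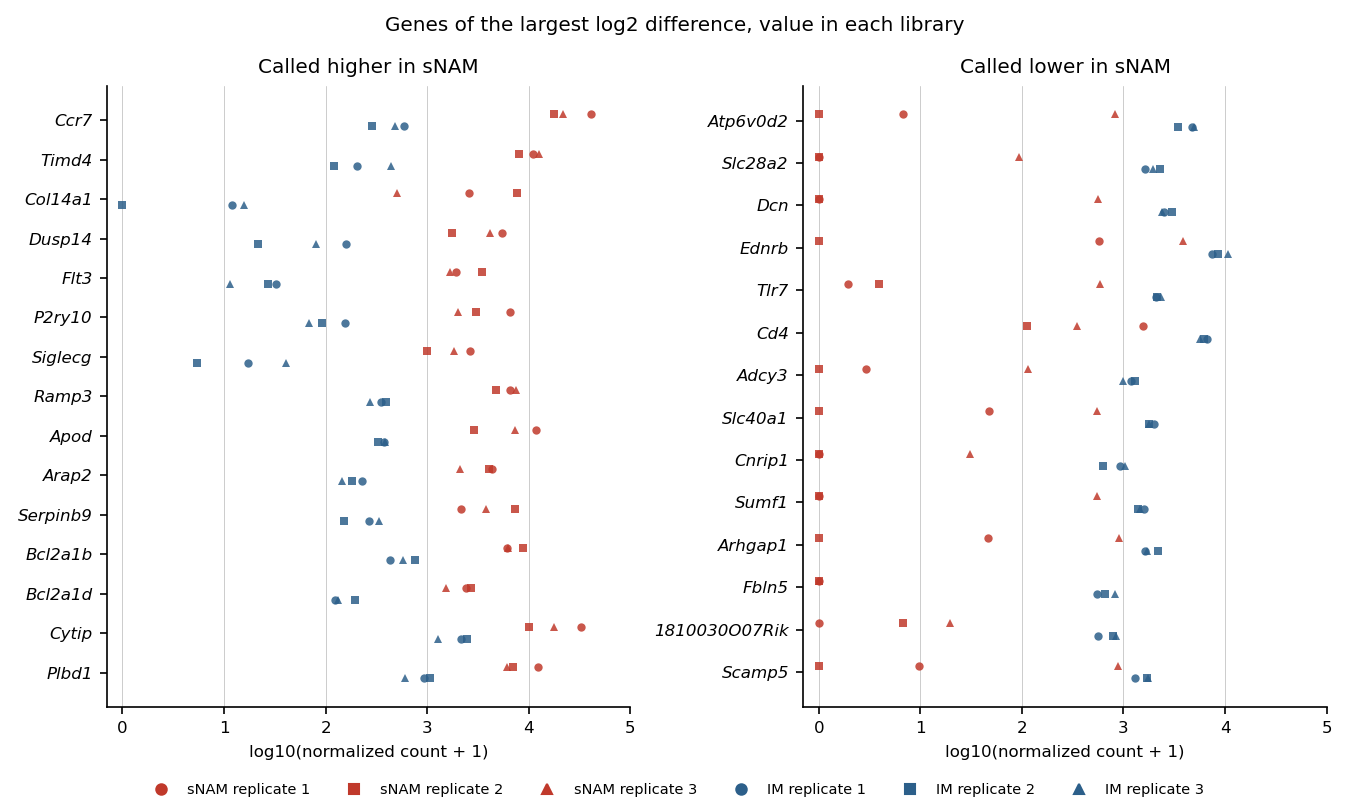
Normalized counts in each library, as log10(value + 1), for called genes with the largest log2 difference in each direction, 15 higher and 14 lower; red marks are the 3 sNAM libraries and blue marks the 3 IM libraries, with 1 shape per replicate number. On the left every red mark of a gene lies right of every blue mark of that gene, with Ccr7 at 17585 or more in sNAM and at 591 or less in IM. On the right many red marks of replicate 2 lie at 0, where the library had no read.

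The largest difference on the log2(value + 100) scale was in Ccr7 (chr11:99144199-99155077 on GRCm38), the receptor that steers dendritic cells into lymphatic vessels. Ccr7 measured 41050, 17585 and 21785 in sNAM, against 591, 285 and 481 in IM. All 3 sNAM libraries stood far above the highest IM library, by 59.3-fold in group means (log2 difference 5.55, SE 0.82; limma adjusted p = 0.00494). By the ratio of group means 6 other higher genes with low values in IM were ahead of it, led by Col14a1 at 417-fold and Flt3 at 104-fold. In bulk RNA a rise of this kind from more cells of one type and a rise from more RNA per cell cannot be told apart. Of 25 tested markers of mature migratory dendritic cells, 4 rose in sNAM, Ccr7, Samsn1, Tmem123 and Serpinb9, and none fell. In 12 of the 25 all sNAM libraries were above all IM libraries and in none below, and their median log2 difference was 1.05. Serpinb9, an inhibitor of the cytotoxic protease granzyme B, measured 2156, 7362 and 3832 in sNAM, against 264, 151 and 338 in IM (log2 difference 3.56, adjusted p = 0.0131 in limma). Samsn1, an adaptor that dampens lymphocyte signalling, measured 4631, 754 and 6385, against 323, 392.4 and 287, so that sNAM replicate 2 stood much nearer to IM than the other sNAM libraries (adjusted p = 0.0376 in limma). Tmem123, a cell surface mucin-like protein, measured 20744, 13455 and 9383, against 4023, 4770 and 3601 (adjusted p = 0.0412 in limma).

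Other members of the same list did not pass and varied. Of the 25 tested, 19 had a positive and 6 a negative log2 difference. The 6 were Relb (-0.04), Cd274 (-0.09), Marcksl1 (-0.27), Cd80 (-0.40), Cd200 (-0.63) and Anxa3 (-0.85), and in each the groups overlapped. The chemokine Ccl22, which attracts CCR4-bearing T cells, measured 6908, 1697 and 5009 in sNAM, against 324, 57.0 and 200 in IM, with no overlap (adjusted p = 0.0644 in limma). Traf1, an adaptor of TNF receptors, measured 7672, 11507 and 8461, against 1965, 3030 and 1661 (adjusted p = 0.0506). Fscn1, the actin-bundling protein of mature dendritic cells, was read mainly in 1 library, at 97.3, 0 and 1514, against 67.6, 182 and 75.2. Il12b measured 0, 1686 and 668, against 0, 26.3 and 13.0. Summed over the 28 markers, the level was 7349, 6298 and 5664 in CPM, which brings the reads of each library to 1 fixed total, in sNAM, against 2197, 2398 and 2321 in IM, and without Ccr7 it was 5063, 5227 and 4368, against 2164, 2381 and 2294. The groups did not overlap in either sum, and no marker of the list was at 0 in every sNAM library. The part of such cells in the result was not tested.

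Flt3 (chr5:147330741-147400489), the receptor for the growth factor that dendritic cells and their precursors depend on, measured 1939, 3441 and 1660 in sNAM, against 31.2, 26.3 and 10.4 in IM (104-fold in group means; log2 difference 4.25, SE 0.70; limma adjusted p = 0.0103). It was the 1 called gene among 15 tested markers of conventional dendritic cells, of which 4 lay above and 2 below with a median of 0.02. Zbtb46, a transcription factor of that lineage, measured 578, 1092 and 587, against 208, 403 and 418, a gap that did not pass (adjusted p = 0.663). Xcr1, the chemokine receptor of cross-presenting dendritic cells, measured 171, 0 and 126, against 516, 289 and 226. Clec9a, another defining gene of those cells, measured 0, 0 and 33.3, against 1.69, 0 and 0. The summed level of the 18 markers overlapped between groups, at 2365, 2583 and 3905 CPM in sNAM, against 2775, 2128 and 2905 in IM.

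Receptors for dying cells made up a further group of differences. Timd4 (chr11:46810786-46844333), which binds phosphatidylserine on apoptotic cells, measured 10899, 7924 and 12500 in sNAM, against 203, 120 and 440 in IM (log2 difference 4.97, SE 0.91; adjusted p = 0.0131 in limma). The sNAM libraries were close to each other and all far above IM. Havcr1, a phosphatidylserine receptor of the same family that ends 31207 bases before Timd4 on chromosome 11, measured 2052, 207 and 723, against 0, 0 and 40.6 (log2 difference 2.86, adjusted p = 0.0419). The related Havcr2 measured 7246, 4812 and 2313, against 1516, 1565 and 1095, and did not pass (adjusted p = 0.142). Axl (chr7:25756500-25788924), a receptor tyrosine kinase that binds such cells through a bridging protein, measured 13763, 8768 and 5120, against 974, 1659 and 1044 (log2 difference 2.74, SE 0.51; adjusted p = 0.0147). Gas6 (chr8:13465374-13494535), the bridging protein of Axl, went the other way at 5075, 2853 and 5005 in sNAM, against 16925, 18842 and 17878 in IM (log2 difference -2.07, SE 0.33; adjusted p = 0.00734). It had reads in every library, and its groups stood well apart. Mertk, the sister receptor of Axl, overlapped between the groups at 120, 1240 and 407, against 554, 872 and 1169. Of 20 tested genes of phagocytosis and apoptotic cell uptake, 3 rose and 1 fell, with a median of -0.15.

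Genes of cell survival were among those that rose in sNAM. Bcl2a1b (chr9:89199273-89207838), an anti-apoptotic protein of the BCL2 family, measured 6111, 8809 and 6204 in sNAM, against 429, 761 and 577 in IM (log2 difference 3.38, SE 0.49; adjusted p = 0.00494 in limma). Its copy Bcl2a1d (chr9:88723288-88731850) measured 2407, 2698 and 1521, against 122, 194 and 131 (log2 difference 3.19, SE 0.57; adjusted p = 0.0131). The third copy, Bcl2a1a, measured 705, 507 and 501, against 28.7, 77.5 and 53.6, and did not pass (adjusted p = 0.0528). Bcl2a1c, below the filter for testing, measured 145, 212.5 and 90.7, against 13.5, 16.8 and 11.2. In each of these 4 copies the sNAM libraries lay above the IM libraries. These genes are near-identical copies, the authors' counting could split reads between them, and which copy was transcribed is uncertain. Their promoters are shown because the pair moved together and because sequence makes the likeness visible. The promoters, from RefSeq on GRCm38.p6, run 5′ to 3′ from 250 bases before to 50 after the start site, in lower case with the searched motifs in capitals.
Bcl2a1b promoter, chr9:89199023-89199322, plus strand: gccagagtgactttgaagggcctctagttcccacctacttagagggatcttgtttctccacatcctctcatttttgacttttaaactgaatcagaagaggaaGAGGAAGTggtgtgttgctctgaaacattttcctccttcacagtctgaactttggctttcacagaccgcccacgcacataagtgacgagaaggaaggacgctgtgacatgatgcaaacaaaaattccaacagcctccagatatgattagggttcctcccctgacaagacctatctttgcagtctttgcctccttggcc
Bcl2a1d promoter, chr9:88731801-88732100, minus strand: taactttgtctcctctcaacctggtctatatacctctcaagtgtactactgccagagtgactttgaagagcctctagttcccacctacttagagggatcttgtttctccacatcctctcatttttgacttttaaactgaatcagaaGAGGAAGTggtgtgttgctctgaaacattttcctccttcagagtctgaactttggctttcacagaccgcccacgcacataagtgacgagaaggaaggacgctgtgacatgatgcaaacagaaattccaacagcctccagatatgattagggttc
Samsn1 promoter, chr16:75909217-75909516, minus strand: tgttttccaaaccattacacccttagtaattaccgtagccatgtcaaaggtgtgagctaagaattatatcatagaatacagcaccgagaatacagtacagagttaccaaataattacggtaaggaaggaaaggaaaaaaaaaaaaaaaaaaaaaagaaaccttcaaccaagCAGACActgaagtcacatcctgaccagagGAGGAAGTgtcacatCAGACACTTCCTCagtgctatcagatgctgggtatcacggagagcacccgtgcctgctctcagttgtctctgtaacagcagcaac
The capitals in the Bcl2a1b and Bcl2a1d lines mark GAGGAAGT, a motif bound by PU.1, the myeloid master regulator. Aligned, 247 of 256 columns of the pair were identical (96.48%). Counted from the start site, the motif began at position -148 in Bcl2a1b and -104 in Bcl2a1d. In Samsn1 it began at -50 on the gene's strand and at -30 on the other; the other capitals there are CAGACA, a Smad motif, which overlaps the second match. Samsn1 was chosen for display after its matches were seen. Sought on both strands, GAGGAAGT was in 5 of the 34 promoters found for the higher genes, those of Bcl2a1b, Bcl2a1d, Samsn1, Gm13546 and Tnip3, in 2 of 36 for the lower genes, and in 3.20% of all 32851 promoters. The near-identical pair is 2 of the 5. A match is a run of letters and not a measured binding site.

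Other survival and NF-κB genes were part of the same picture. Pmaip1, a pro-apoptotic member of the BCL2 family also known as Noxa, measured 5899, 3147 and 5048 in sNAM, against 675, 676 and 451 in IM (adjusted p = 0.0459 in limma). Of 24 tested genes of survival and apoptosis, 4 rose, Bcl2a1b, Bcl2a1d, Pmaip1 and Serpinb9, and none fell; their median was 0.07. The 4 do not act in a single direction, since Pmaip1 promotes death and the BCL2A1 proteins oppose it. Tnip3, an inhibitor of NF-κB signalling that the pathway itself induces, measured 14019, 20956 and 15533, against 3648, 3889 and 4765 (log2 difference 2.00, adjusted p = 0.0376). Of 31 tested NF-κB genes, 3 rose and none fell, 14 lay above and 1 below, and the median was 0.33. The 3 are Tnip3 and the near-identical Bcl2a1b and Bcl2a1d, which the survival list counts as well, so Tnip3 was the 1 call that this list added. Rel, the c-Rel subunit, measured 10976, 14520 and 10630, against 3566, 4605 and 4539, with no overlap but no call (adjusted p = 0.187). Rela and Relb, subunits as well, overlapped between the groups.

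Cd74 (chr18:60803849-60812652), the invariant chain that guides MHC class II molecules through the cell, measured 735650, 368640 and 551060 in sNAM, against 96726, 74951 and 105960 in IM (log2 difference 2.53, SE 0.56; adjusted p = 0.0376 in limma). Napsa, an aspartic protease, measured 6091, 1156 and 4235, against 382, 565 and 322 (adjusted p = 0.0355). The class II chains themselves could not be read beside it: of 15 list genes at the MHC locus, 9 were listed at 0 in all 6 libraries and the highest value of any was 57.9. The macrophage genes Aif1, Trem2, Laptm5 and Clec10a were likewise listed at 0 in all 6 libraries. A 0 of this kind in genes that macrophages usually express may be a failed estimate, so nothing is read from it. Of 9 tested antigen presentation genes, Cd74 was the 1 call, and the median was -0.07.

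Among genes of the actin cytoskeleton and of movement, 4 rose. Lsp1 (chr7:142458223-142494868), an actin-binding protein of migrating leukocytes, measured 11097, 16010 and 11780 in sNAM, against 1397, 1650 and 1604 in IM (log2 difference 2.97, SE 0.44; adjusted p = 0.00494 in limma). Tmsb4x, thymosin β4, which binds actin monomers, measured 127610, 162530 and 155960, against 49718, 41659 and 45384 (log2 difference 1.70, adjusted p = 0.0219). Coro1a, an actin regulator of leukocytes, measured 5214, 10634 and 5558, against 858, 1642 and 1122 (adjusted p = 0.0459). F11r, the junctional adhesion molecule JAM-A, measured 1965, 1921 and 400, against 102, 63.6 and 54.5 (adjusted p = 0.0461). Of 40 tested adhesion and motility genes these 4 rose and none fell, 16 lay above and 3 below, and the median was 0.48. Cytip, which regulates integrin adhesion through cytohesin, measured 32899, 10130 and 17557, against 2152, 2456 and 1289 (log2 difference 3.18, adjusted p = 0.0131). The long non-coding Gm13546, called higher at 198, 998 and 503 against 23.6, 13.2 and 16.4, lies within Cytip on chromosome 2. The strand setting of the counting is not given in the sources used here, so reads of Gm13546 and of Cytip cannot be told apart.

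Of 10 tested receptors for neuropeptides, endothelins and neurotransmitters, 2 rose and 1 fell. Ramp3, which pairs with the calcitonin receptor-like receptor to form a receptor for adrenomedullin and related peptides, measured 6494, 4748 and 7399 in sNAM, against 350, 394 and 271 in IM (log2 difference 3.83, SE 0.64; adjusted p = 0.0103 in limma). Htr7, a serotonin receptor, measured 1946, 1249 and 405, against 63.3, 34.3 and 0 (log2 difference 3.10, adjusted p = 0.0456; called in 7 of the 19 alternatives). Ednrb, the endothelin B receptor, measured 570, 0 and 3837, against 7384, 8435 and 10645 (log2 difference -3.78, adjusted p = 0.0154). Of 23 tested genes of axon guidance and nerve growth, Nrp1, a co-receptor for semaphorins and VEGF, was the 1 call. It measured 2430, 108 and 3436, against 7468, 6756 and 8207 (log2 difference -2.62, adjusted p = 0.0412), with replicate 2 far below the other sNAM libraries. Nrp1 was called in 5 of the 19 alternatives.

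The remaining genes with the largest rises belonged to no common list. Siglecg, an inhibitory receptor for sialic acid, measured 2627, 1004 and 1817 in sNAM, against 16, 4.38 and 39.8 in IM (log2 difference 3.91, SE 0.58; adjusted p = 0.00494 in limma). Dusp14, a phosphatase of MAP kinases, measured 5509, 1747 and 4150, against 156, 20.5 and 78.7 (adjusted p = 0.0156). P2ry10, a receptor for lysophospholipids, measured 6485, 3010 and 2019, against 155, 91.3 and 67.4 (adjusted p = 0.0314). Apod, a lipid-carrying apolipoprotein, measured 11827, 2864 and 7344, against 372, 325 and 386 (log2 difference 3.80, adjusted p = 0.0131). In each of these genes the lowest sNAM library was above the highest IM library. Il7r, the interleukin-7 receptor, measured 9149, 7842 and 5771, against 1323, 1543 and 1045 (log2 difference 2.44, SE 0.44; adjusted p = 0.0131). Clec12a, an inhibitory C-type lectin, measured 2767, 7810 and 2420, against 461, 610 and 431 (adjusted p = 0.0412). Rgs1, which dampens chemokine receptor signalling, measured 9466, 15990 and 9758, against 2969, 2139 and 1720 (adjusted p = 0.0412). Col14a1, a fibril-associated collagen, was the least even of them at 2557, 7659 and 498, against 11, 0 and 14.7 (log2 difference 4.41, adjusted p = 0.0305). Plbd1, a phospholipase B-like protein, measured 12257, 6914 and 6071, against 932, 1053 and 605 (adjusted p = 0.0412), and Arap2, a regulator of small GTPases, measured 4366, 4046 and 2126, against 225, 179 and 145 (adjusted p = 0.0376).

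The lysosome list had the most called genes of the 47 lists on the lower side. Of 47 tested lysosomal genes, 4 fell in sNAM, Lamp1, Grn, Ctsl and Atp6v0d2, and none rose; 26 lay below and 2 above, and the median was -0.57, against -0.26 over all genes. Lamp1 (chr8:13159161-13175338), the major protein of the lysosomal membrane, measured 21075, 23806 and 29221 in sNAM, against 54633, 52094 and 56686 in IM (log2 difference -1.15, SE 0.27; adjusted p = 0.0427 in limma). Grn, progranulin, measured 34536, 26385 and 39040, against 71714, 77920 and 80240 (log2 difference -1.22, adjusted p = 0.0412). Ctsl, a cysteine cathepsin, measured 5251, 2792 and 7081, against 19018, 15994 and 19836 (log2 difference -1.93, adjusted p = 0.0461). These 3 genes had reads in every library and tight IM values. Atp6v0d2, a subunit of the proton pump, was close to absent in 2 sNAM libraries at 5.78, 0 and 827, against 4740, 3430 and 4991 (log2 difference -4.37, adjusted p = 0.00567). The cathepsin Ctsb measured 98351, 88631 and 142200, against 286610, 237290 and 304720, and just missed the threshold (adjusted p = 0.0506). The cathepsin Ctsh went against the list at 6021, 7621 and 3760, against 1911, 1840 and 1859, without passing (adjusted p = 0.0784). Sumf1, the enzyme that activates sulfatases and that was not in the list, fell as well, at 0, 0 and 544, against 1604, 1392 and 1466 (log2 difference -3.09, adjusted p = 0.0131), with reads in sNAM replicate 3 alone.

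Promoters of Lamp1 and Sumf1, again from RefSeq on GRCm38.p6, are shown for the motif CACGTG, the E-box that MITF and TFE factors, known regulators of lysosomal genes, can bind. Lamp1 was chosen after its matches were seen.
Lamp1 promoter, chr8:13158911-13159210, plus strand: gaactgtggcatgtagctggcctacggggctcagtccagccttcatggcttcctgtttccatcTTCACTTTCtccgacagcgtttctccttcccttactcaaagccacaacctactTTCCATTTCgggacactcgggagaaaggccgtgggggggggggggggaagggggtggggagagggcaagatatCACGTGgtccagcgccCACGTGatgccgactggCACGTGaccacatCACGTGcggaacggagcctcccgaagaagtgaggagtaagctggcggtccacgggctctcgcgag
Sumf1 promoter, chr6:108185534-108185833, minus strand: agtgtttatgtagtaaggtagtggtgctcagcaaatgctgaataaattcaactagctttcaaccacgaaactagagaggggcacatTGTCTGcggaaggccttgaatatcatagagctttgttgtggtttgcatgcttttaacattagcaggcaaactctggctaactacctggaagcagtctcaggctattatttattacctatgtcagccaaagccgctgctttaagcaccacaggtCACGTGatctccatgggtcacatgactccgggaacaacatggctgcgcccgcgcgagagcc
Lamp1 held 4 copies of CACGTG, beginning at positions -61, -45, -28 and -15 from the start site, and Sumf1 held 1, at -11. The remaining capitals mark matches to GAAANNGAA, an interferon response motif, in Lamp1 and to CAGACA in Sumf1, each on the opposite strand to the gene. CACGTG was in 6 of 36 promoters found for the lower genes (Lamp1, Ctsl, Slc38a7, Chtf8, Zdhhc3 and Sumf1), in 2 of 34 for the higher genes (Flt3 and Plbd1), and in 7.15% of all promoters. GAAANNGAA was in 5 of 34 for the higher and 5 of 36 for the lower genes, against 8.56% of all, and CAGACA in 8 and 9, against 21.0% of all. TGAGTCA, an AP-1 motif, was in 2 of 34 and 3 of 36, against 5.2%. The NF-κB motif GGGACTTTC was in 1 of 34, that of Neurl3, and in none of 36, against 0.353%, and GGGAATTTC was in none of either, against 0.259%.

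Of 28 tested matrix and protease genes, 2 fell, Timp2 and Ecm1, and 1 rose, Col14a1; 9 lay below, 2 above and 17 overlapped, and the median was -0.62. Timp2 (chr11:118301061-118355411), an inhibitor of matrix metalloproteases, measured 15149, 5906 and 17139 in sNAM, against 42172, 41460 and 46653 in IM (log2 difference -1.90, SE 0.35; adjusted p = 0.0131 in limma). Ecm1, a secreted matrix glycoprotein, measured 6463, 4917 and 9477, against 21353, 20744 and 20032 (log2 difference -1.61, adjusted p = 0.04). Selenop, Dcn and Fbln5, which also passed, are outside that list, and Selenop was picked after its values were seen. Selenop, the selenium transport protein, measured 20994, 17507 and 30795, against 86660, 63033 and 83680 (log2 difference -1.77, adjusted p = 0.0413). Timp2, Ecm1 and Selenop were read in every library with no overlap between groups. Dcn, the matrix proteoglycan decorin, measured 0, 0 and 561, against 2476, 2991 and 2411 (log2 difference -3.85, adjusted p = 0.0355). Fbln5, a protein of elastic fibres, had no read in any sNAM library, against 542, 664 and 832 in IM. Set against 3 reads per library, a limit that covers counting error alone, Fbln5 was at least 119-fold lower in the sNAM reads. That limit does not cover transcripts lost before sequencing, so it does not bound expression in the cells. Dcn is made mainly by fibroblasts. The 12 fibroblast markers summed to 48.2, 73.8 and 60.5 CPM in sNAM, against 433, 472 and 289 in IM, and without Dcn to 48.2, 73.8 and 27.2, against 293, 300 and 154. Of the 7 tested fibroblast markers 1 fell, Dcn, and 6 lay below. Lum, Mfap5, Dpt and Sparcl1 were at 0 in all sNAM libraries. The part of fibroblast RNA in the lower values was not tested.

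Some sensors and receptors of macrophages also fell, mostly with few or no reads in sNAM replicates 1 and 2. Tlr7, an endosomal sensor of single-stranded RNA, measured 0.963, 2.91 and 592 in sNAM, against 2075, 2135 and 2333 in IM (log2 difference -3.56, adjusted p = 0.0131 in limma). Tlr8, its neighbour on the X chromosome with a gap of 39050 bases, measured 0, 0 and 113, against 551, 646 and 628 (log2 difference -2.46, adjusted p = 0.0341). They were the 2 calls among 29 tested Toll-like and cytosolic sensors. Cd4, which mouse macrophages can express, measured 1566, 111 and 344, against 6655, 6187 and 5709 (log2 difference -3.54, adjusted p = 0.0131). Slc40a1, the iron exporter ferroportin, measured 46.2, 0 and 548, against 1978, 1791 and 1789 (log2 difference -3.20, adjusted p = 0.0289) and was the 1 call of 22 genes of iron and haem. Slc28a2, a nucleoside transporter, measured 0, 0 and 92.5, against 1627, 2300 and 1932 (log2 difference -4.03, adjusted p = 0.0195), and Adcy3, an adenylate cyclase, measured 1.93, 0 and 113, against 1177, 1311 and 984 (log2 difference -3.27, adjusted p = 0.0174). Abcd3, a transporter of the peroxisome membrane, was near 0 in all 3 sNAM libraries at 2.89, 0 and 1.85, against 522, 401 and 472 (log2 difference -2.47, adjusted p = 0.0459). Gstm1, a glutathione transferase, measured 481, 288 and 2742, against 6572, 5173 and 6087 (log2 difference -2.80, adjusted p = 0.0131). In Tlr7, Tlr8, Slc40a1, Slc28a2, Adcy3 and Gstm1 sNAM replicate 3 was the sNAM library nearest to IM.

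The markers of the populations themselves gave a mixed account. Cx3cr1, whose locus carries the sorting reporter, measured 1.93, 0 and 27.8 in sNAM, against 3.38, 10.2 and 0 in IM, below the filter for testing. In the punched ear of these mice it measured 66.9, 0 and 0 in injsNAM and 173, 96.7 and 160 in recsNAM, against 0.821, 7.28 and 23.5 in injIM. The reads of Cx3cr1 thus did not separate sNAM from IM, and what the inserted creERT2 and gfp leave of the normal transcript was not tested. In the list of nerve-associated and microglia-like genes none of 14 tested was called, 2 lay above and 5 below, and the median was -0.27, close to that of all genes. Tmem119, a microglial membrane protein, measured 1096, 1234 and 309, against 54.9, 78.2 and 24.2 (adjusted p = 0.0662 in limma), and the tetraspanin Cd9 measured 10828, 9734 and 9527, against 2808, 3046 and 3413 (adjusted p = 0.0528). The purinergic receptor P2ry12, another microglial gene, lay below at 448, 751 and 622, against 1618, 1322 and 1890 (adjusted p = 0.3). Summed, the list reached 7294, 7330 and 10140 CPM in sNAM, against 10580, 9786 and 11010 in IM, which overlap. Without Apoe, its most abundant gene, the sums were 3894, 5058 and 4327, against 2810, 2537 and 3094, so every sNAM library was above every IM library. No member passed the test, for or against the label of nerve-associated macrophages.

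Of 18 tested genes of interstitial and perivascular macrophages, Gas6 and Ednrb were the 2 that fell and Timd4 the 1 that rose; 10 lay below and 1 above, and the median was -1.63. The mannose receptor Mrc1 measured 13014, 8419 and 17803, against 34979, 37372 and 42855 (adjusted p = 0.083 in limma). The coagulation factor F13a1 measured 15512, 4742 and 12058, against 41277, 46178 and 50778 (adjusted p = 0.0528). Lyve1, the hyaluronan receptor of perivascular macrophages, overlapped at 0, 2003 and 777, against 438, 1566 and 1336. Summed, these markers reached 4441, 2336 and 6036 CPM in sNAM, against 10090, 11270 and 12630 in IM. The pan-macrophage markers summed to 33660, 33370 and 36540, against 38180, 37820 and 39040, none of their 15 tested members was called, and 6 lay below and 2 above. Without Cd14, their most abundant gene, the sums were 21640, 21210 and 27110, against 31540, 29520 and 32330, and 12 of the 15 members had a negative log2 difference, with a median of -0.48. The sorted surface markers did not differ beyond their spread: Itgam, which encodes CD11b, measured 6732, 4757 and 3134, against 4257, 5612 and 4967 (adjusted p = 0.966), and Fcgr1, which encodes CD64, measured 2518, 1435 and 825, against 1036, 1348 and 759 (adjusted p = 0.8).

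Among the lists with at least 14 tested members, those with the largest shares of members above were mature migratory dendritic cell markers, NF-κB, and adhesion and motility genes. Lists with high shares below were those of interstitial macrophages, the lysosome, C-type lectins and scavenger receptors, complement, and lipid handling. For the lectins and scavenger receptors 14 of 27 tested members lay below and 5 above with a median of -0.85, and 1 gene was called, Clec12a, which rose. For lipid handling 13 of 27 lay below and 2 above with a median of -0.76, and none was called. Of 52 tested genes of cytosolic ribosomal proteins, 19 lay above and none below with a median of 0.35, and again none was called. Of 38 cytokines and their receptors, 12 lay above, 4 below and 1 was called, Il7r. Il1b, the inflammatory cytokine, measured 150320, 203270 and 106870, against 42814, 67824 and 36842, and did not pass (adjusted p = 0.116 in limma). No call was made among 33 genes of the TGF-β pathway, 18 chemokine ligands, 31 interferon response genes, 44 respiratory chain genes, 27 cell cycle genes and 36 proteasome and folding genes. In all, 37 of the 91 called genes were in a list and 54 in none.

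**Figure D3:**
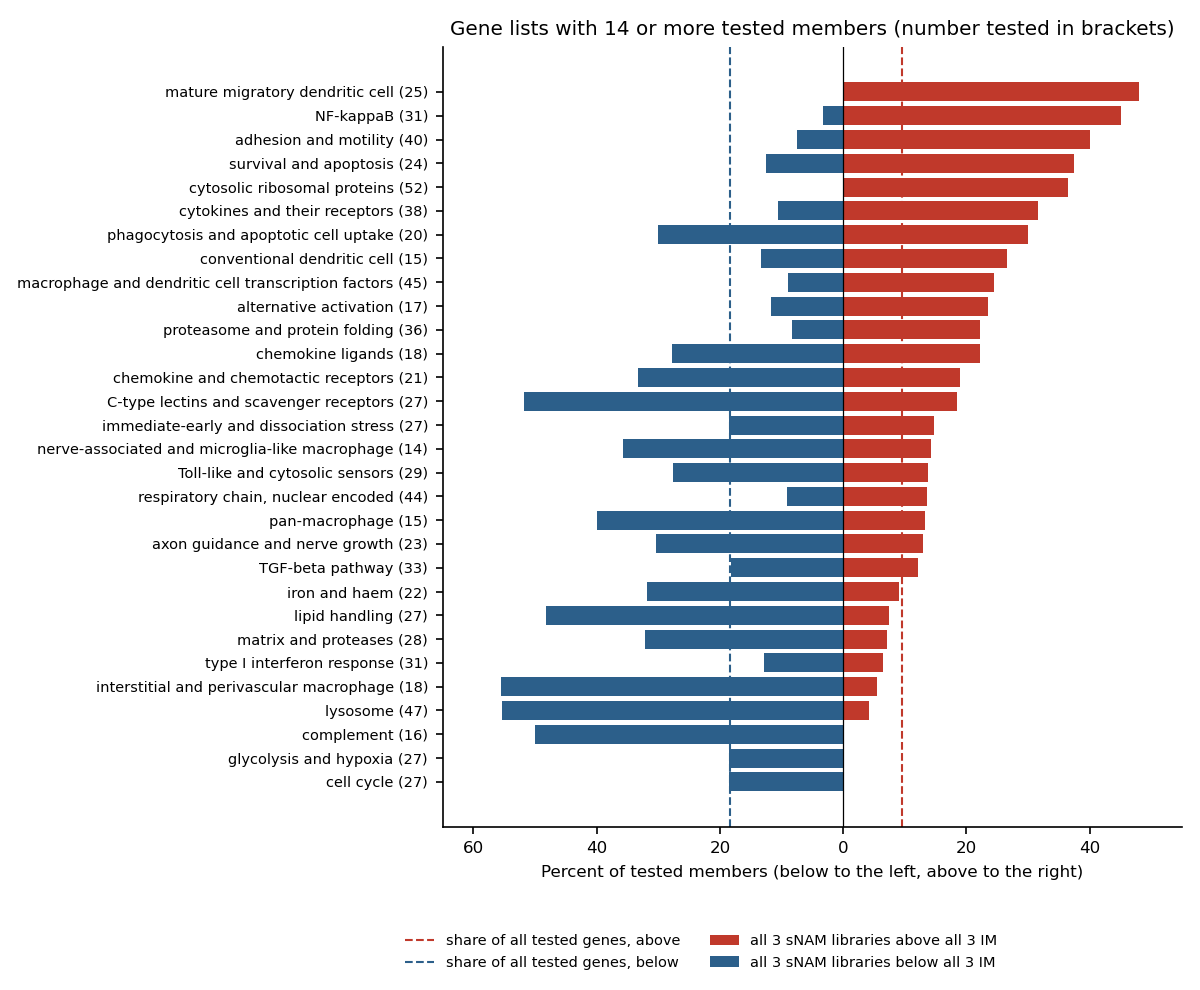
Percent of tested members of each gene list whose 3 sNAM libraries lay all above (red, right) or all below (blue, left) the 3 IM libraries, for lists with at least 14 tested members; dashed lines give the shares over all genes tested, 9.57% above and 18.4% below. Mature migratory dendritic cell markers have 12 of 25 members above and none below, and the lysosome has 26 of 47 below and 2 above.

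Markers of other cell types were uneven among the sNAM libraries. Mast cell markers summed to 0.161, 2189 and 178 CPM in sNAM, against 848, 626 and 660 in IM, so replicate 2 was above and replicates 1 and 3 below every IM library. Neuronal markers summed to 0.107, 102 and 46.0, against 1.96, 2.31 and 2.47. Of the 13 genes, 7 were at 0 in every sNAM library, among them Uchl1, Snap25 and Prph, and 6 were at 0 in every IM library. Most of the sum in sNAM came from Calca, the gene of the neuropeptide CGRP, and without it the sums were 0.107, 4.97 and 18.9, against 0.383, 1.18 and 2.04. Schwann cell markers summed to 1316, 934 and 1687, against 3491, 2666 and 3386, nearly all from Pmp22. Without it they were 35.3, 107 and 48.1, against 51.5, 62.4 and 46.5. Sox10, Mag, Prx and Cdh19 were at 0 in all sNAM libraries, and 2 genes of the list were at 0 in all IM libraries. T, NK and innate lymphoid markers summed to 839, 495 and 817, against 477, 470 and 397, and without Il7r they overlapped at 329, 17.6 and 473, against 401, 381 and 338. Cd4, which fell, made up most of the IM sum at 377, 356 and 320, and without both genes the sums were 242, 10.8 and 453 in sNAM, against 24.0, 25.3 and 17.8 in IM, so replicates 1 and 3 stood above and replicate 2 below every IM library. In normalized counts Cd3e, a chain of the T cell receptor complex, measured 1264, 49.5 and 1802, against 15.2, 57.7 and 30.3 (adjusted p = 0.191 in limma). Cd3g, another chain of that complex, measured 1025, 0 and 2829, against 24.5, 26.3 and 14.7 (0.177), the cytotoxic granule gene Nkg7 613, 0 and 1530, against 9.29, 9.50 and 5.19 (0.276), and Trdc, the constant region of the δ chain, 487, 0 and 638, against 4.22, 26.3 and 4.32 (0.297). Il7r itself was high in all 3 sNAM libraries, replicate 2 included. Neutrophil markers summed to 374, 277 and 419, against 141, 134 and 103, and without the decoy receptor Il1r2 to 43.1, 128 and 55.8, against 112, 113 and 92.6. B and plasma cell markers stayed between 6 and 27 in sNAM. The part of these cells in the called genes was not tested.

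**Figure D4:**
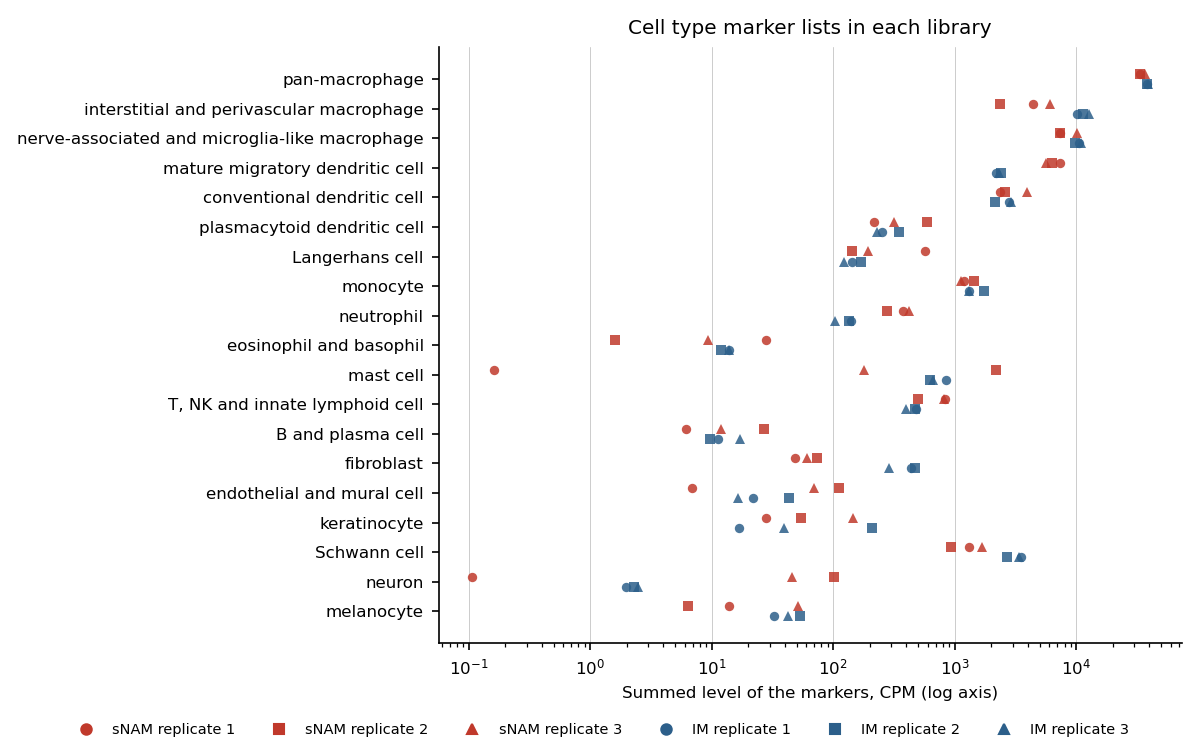
Summed level of each cell type marker list in CPM, on a log axis, for the 3 sNAM (red) and 3 IM (blue) libraries, 1 shape per replicate number. Mature migratory dendritic cell markers lie at 5664 to 7349 in sNAM and at 2197 to 2398 in IM, while mast cell and neuronal markers spread over several decades among the sNAM libraries.

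The punched ear held the same pair of populations, in other libraries from the same 3 mice. Those libraries did not enter the sNAM and IM means compared above. They did enter the filter and the estimated spread of each gene, since the fit used all 15 libraries. Between injsNAM and injIM, 42 of 8656 genes were called in limma (0.485%), 21 in each direction (0.243%). Of the 47 genes higher in sNAM than in IM, 45 also had a positive difference in the punched ear (95.74%), against 60.2% of all tested genes with a positive difference in the unpunched ear. Of the 44 lower genes, 40 had a negative one (90.91%), against 66.98%. The sizes were smaller, with a median log2 difference of 1.20 in the punched ear against 2.75 in the unpunched ear for the higher genes, and of -0.81 against -2.60 for the lower genes. The genes were selected on the unpunched values, which by itself favours larger values there. Fewer genes were also detected in injsNAM than in injIM, 10952 to 12302 against 16057 to 16416. Of the tested genes, 4.26 to 8.79% had no read in the injsNAM libraries, against 0.139 to 0.277% in injIM. The part of missing reads in the signs shared by both ears was not tested.

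In both ears 8 genes were called higher in the nerve-associated cells: Ccr7, Timd4, Ramp3, Serpinb9, Bcl2a1b, Acap1, Axl and Rgs1. Another 4 were called lower in both: Abcd3, Fbln5, Cnrip1 and Dcn. All 4 had few or no reads in injsNAM. There Abcd3 measured 180, 22.6 and 0, Fbln5 66.0, 0 and 0.856, Cnrip1 0, 0 and 0, and Dcn 175, 0 and 0. No gene was called in opposite directions. Ccr7 had a log2 difference of 4.45 in the punched ear (limma adjusted p = 0.00411), Timd4 of 3.61 (0.0233), Axl of 2.69 (0.00411) and Dcn of -4.05 (0.00646). Acap1, which acts in recycling from endosomes, measured 1389, 958 and 705 in sNAM, against 30.4, 68.7 and 42.4 in IM, with a log2 difference of 2.80 in the punched (adjusted p = 0.0164) and 2.89 in the unpunched ear (0.0412). For 6 of the 91 genes the sign differed in the punched ear: Siglecg, Havcr1, Mindy1, Anapc7, Tlr8 and 4932438H23Rik. Siglecg had a log2 difference of -0.12 in the punched and 3.91 in the unpunched ear, and its interaction had the smallest adjusted p of all genes, 0.211. In limma no gene passed the test of the difference between ears, with 444 at an unadjusted p under 0.05, and edgeR with TMM scaling called 26.

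**Figure D5:**
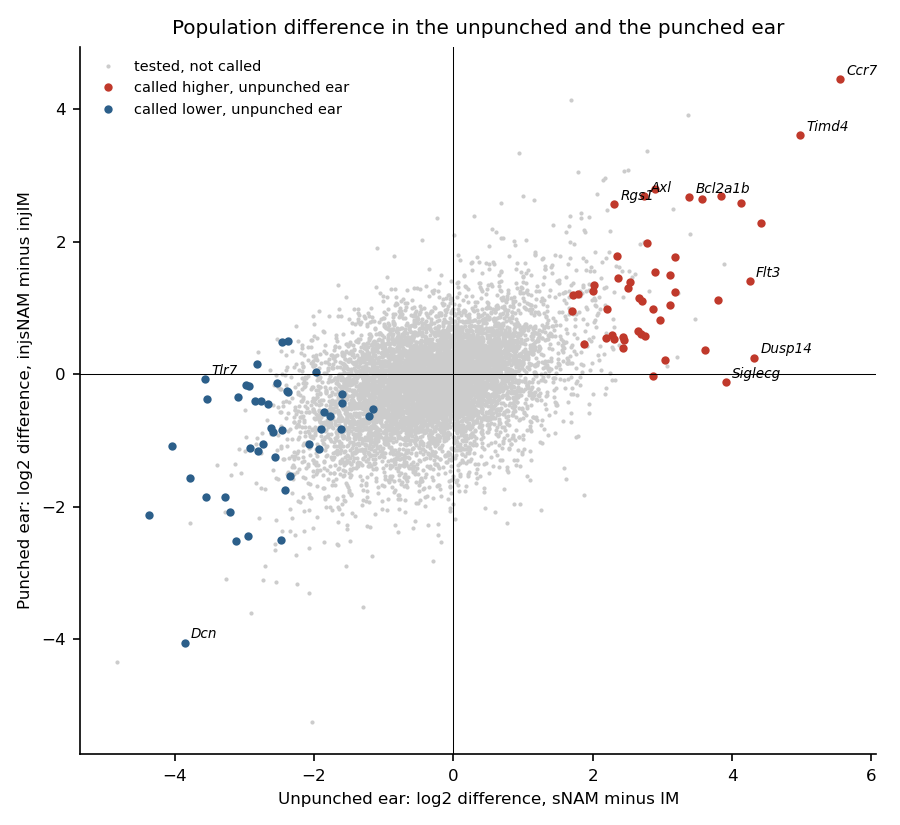
Log2 difference of nerve-associated over interstitial macrophages in the unpunched ear (horizontal, sNAM minus IM) and in the punched ear (vertical, injsNAM minus injIM); grey points are genes not called, red points the 47 genes called higher and blue points the 44 called lower in the unpunched ear. Of the red points 45 lie above 0 on the vertical axis and of the blue points 40 below it, and Ccr7, Timd4 and Dcn are far out in both ears.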

How the data were processed

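RNA-seq values of 15 libraries in 5 groups of 3 were used, grouped by title, and 6 of them form the main comparison. The submitters' processing notes name STAR 2.7.2b, bcl2fastq 2.18, cutadapt, DESeq2 1.24.0 and R 3.6.1, and the build mm10. Not given in the sources used here are the tool that counted reads, its annotation and its strand setting. The table deposited by the authors holds a signal for each gene, a read count scaled by a single factor for its library. Divided by the value of 1 read, 100% of values in each library were whole to a tolerance of 0.01, so whole reads were recovered; intervals and limits from them cover counting error only.

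The principal test was limma 3.58.1 (limma-trend, robust moderation) in R 4.3.3 on log2(value + 100), for the 8656 of 42454 genes with a mean value of 100 or more, with all 15 libraries, 1 mean and 1 array weight per group (sNAM 0.175, IM 3.43) and Benjamini-Hochberg adjustment over all genes tested. Differences on this scale understate the change of low genes. The fit was checked on simulated counts with a spread shared by all genes of a group, which is simpler than the real libraries. With no gene changed, it still called genes as lower in sNAM, in numbers like those of the lower calls here, and none as higher. Alternatives used edgeR 4.0.16, DESeq2 1.42.0 and voom on recovered reads (edgeR with TMM scaling called 332 genes), other pseudocounts, filters, weights and scalings, and each library left out.

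The comparison, the gene lists, the settings and the rule for named genes were chosen with earlier results of these data known. The rule names the 15 called genes of the largest difference in each direction, called members and the 3 members of highest value in each list, and genes of the sort; further genes named in the text were chosen after their values were seen. A few genes that the rule names are not reported here. Coordinates and promoters were matched by symbol to RefSeq on GRCm38.p6, and promoter pairs were aligned with Biopython 1.88.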

Additional observations from a re-analysis of the deposited data

How the results depend on the processing

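Against 91 calls for sNAM against IM, 1 pooled spread gave 727, 1 weight per library 166, edgeR with TMM 332, edgeR with the deposited factors 351, DESeq2 926, and pseudocounts of 10 and 500 gave 0 and 152. With a pseudocount of 10, limma had 1281 genes at an unadjusted p under 0.05. Leaving out 1 library gave 0 to 108 calls: 0 without sNAM replicate 1 (872 at an unadjusted p under 0.05), 9 without sNAM replicate 3 and 57 without IM replicate 3. TMM-scaled values moved the share of higher calls to 38.6%, against 51.6%, and voom called 107 genes, 95 of them higher. The interaction, with 0 calls in limma, had 4 with a pooled spread, 1 with a pseudocount of 500, 6 without a filter, and, in fits added after the data were seen, 26 and 31 with edgeR by TMM and by deposited factors. Genes detected in IM averaged 15380, and 14034 at the depth of the shallowest library.

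A fit with the replicate number as a block called 100 genes, 41 higher and 59 lower. Whether the numbers pair the libraries by mouse is not settled by these values. The deviations of same-numbered sNAM and IM libraries correlated at -0.021, 0.0481 and 0.0804, and those of other pairs at -0.0901 to 0.0263. sNAM replicates 2 and 3 correlated best with their own number, and sNAM replicate 1 with another. Over the called genes among those named by rule, 685 values kept their direction and their side of the threshold under an alternative, 294 kept their direction without passing, and none reversed. Genes named by rule but not called were not followed in this way. The groups did not overlap in these genes, so leaving out a library or changing the pseudocount could not reverse them. Of the 44 lower calls, 24 had no read in at least 1 sNAM library; leaving out sNAM replicate 1, or setting the pseudocount to 10, kept none of the 91 calls, and leaving out sNAM replicate 3 kept 7 of the 44. The cause of these changes was not tested.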

Other observations

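Several lists outside the account above held no called gene. Of 45 tested transcription factors of macrophages and dendritic cells, 11 lay above and 4 below, with a median log2 difference of 0.16. Zeb1, a zinc-finger repressor picked after its values were seen, measured 1756, 643 and 492 in sNAM, against 88.7, 70.1 and 79.5 in IM (limma adjusted p = 0.0727). Spi1, which encodes PU.1, measured 14495, 15230 and 16643, against 13014, 13980 and 14283, with no overlap but a log2 difference of 0.17 (adjusted p = 0.877). Of 27 genes of immediate-early and dissociation stress, 4 lay above and 5 below (median -0.24), of 27 genes of glycolysis and hypoxia none above and 5 below (median -0.30), of 17 genes of alternative activation 4 above and 2 below (median -0.12), and of 8 Fc receptor genes none above and 1 below (median -0.10).

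Chemokine genes lay on both sides. Ccl2, which attracts monocytes, measured 20580, 30362 and 44041 in sNAM, against 85744, 66142 and 76319 in IM (adjusted p = 0.239 in limma). Cxcl1 and Cxcl2, which attract neutrophils, lay above: Cxcl1 measured 55898, 50229 and 38050, against 33104, 31020 and 27167 (adjusted p = 0.392), and Cxcl2 measured 74913, 74408 and 67166, against 51056, 48641 and 41501 (adjusted p = 0.53). None of the 3 passed the test.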
